A study of Mus musculus with 4 samples.

Results

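Mouse ovaries were dissociated into single cells, and 81 cells were selected by a marker rule from 30523 cells that passed quality limits, out of 33639 deposited cell barcodes. The cells were chosen by the presence of transcripts, counted as unique molecular identifiers (UMIs, tags that count each captured transcript once). Each had at least 1000 UMIs, at most 20% mitochondrial UMIs, and at least 3 of Upk3b, Upk1b, Lgals7, Krt19, Krt7 and Muc16 with a UMI. Upk3b or Upk1b had to be present, and Epcam, Ptprc and Pecam1 had to be at 0 UMIs. The rule was made for ovarian surface epithelium, and the selected cells are called Upk3b/Upk1b cells here because some epithelial genes outside the rule were nearly absent from them.

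The control mice received PBS/saline. Doxorubicin, an anthracycline that poisons topoisomerase II and breaks DNA, was given to mice of postnatal day 25 as 2 weekly doses of 3 mg/kg. A further group received this regimen together with anti-Müllerian hormone (AMH, recombinant human protein) at 0.75 mg/kg, and the last group the same dose of AMH without doxorubicin. Ovaries were collected 4 hours past the second dose. Each of the 4 groups was 1 library, pooled from 1 ovary of each of 5 animals, so animal-to-animal spread is unknown, no test between groups was possible, and every interval below covers counting error only.

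Surface epithelium is the single layer of mesothelium-derived cells that covers the ovary. It carries keratins, mesothelin and the uroplakins Upk3b and Upk1b, stains for mesenchymal proteins such as vimentin as well, and repairs the surface after ovulation. The transcription factor p53, stabilised when DNA breaks, switches on genes of cell cycle arrest and cell death. Interferon-stimulated genes are switched on by type I interferon or by sensing of nucleic acids within the cell. AMH binds the receptor Amhr2 and signals through the same SMAD proteins as the bone morphogenetic proteins (BMPs), whose usual early targets are the Id genes.

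The 4 libraries held 7141 to 9478 barcodes and 138647495 to 178279122 UMIs, and the median kept cell had 11266.5 to 15491.5 UMIs. Between 11 and 24 barcodes were shared by any pair of libraries, at most 0.281% of the smaller one, and none belonged to an Upk3b/Upk1b cell. There were 26 such cells in the control library, 18 with doxorubicin, 9 with doxorubicin+AMH and 28 with AMH. As shares of kept cells these were 0.303% (95% exact Clopper-Pearson interval 0.198% to 0.443%), 0.281% (0.167% to 0.444%), 0.129% (0.059% to 0.245%) and 0.328% (0.218% to 0.473%). The share with doxorubicin+AMH was the lowest, and its interval overlapped that of every other library. Together the cells held 441711 UMIs in control, 402876 with doxorubicin, 82260 with doxorubicin+AMH and 733255 with AMH. The cells' counts were added up within a library and scaled to a total of 1000000 UMIs (CPM), so 1 UMI was worth 2.26, 2.48, 12.2 and 1.36 CPM. The doxorubicin+AMH values are therefore the coarsest of the 4.

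All 6 rule markers were present in 17 of the 26 control cells, 10 of 18 with doxorubicin, 1 of 9 with doxorubicin+AMH and 18 of 28 with AMH. The 5 cells with exactly 3 markers had 487.5 CPM of Upk3b, 745.6 CPM of Krt19 and 3298 CPM of C3. The 46 cells with exactly 2 markers, otherwise eligible, had 15.3 CPM of Upk3b, 1.53 CPM of Krt19 and 116 CPM of C3. Upk3b and Krt19 are rule markers, so that gap comes with the selection. Granulosa markers summed to 2177 CPM in the cells with 2 markers, 286.8 CPM in those with 3 and 1998 CPM in the 76 cells with 4 to 6.

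Some of the selected cells carried markers of another cell type as well. Cells with over 0.3% of their UMIs from other types' marker lists numbered 2, 1, 1 and 3 in control, doxorubicin, doxorubicin+AMH and AMH, and they held 11.8%, 9.69%, 34.6% and 41.7% of the UMIs. In control 1 was high in granulosa genes and 1 in smooth muscle genes, with doxorubicin the cell was high in granulosa genes, and with AMH all 3 were. The doxorubicin+AMH cell had 28449 UMIs, of which 6139 were erythroid, mainly haemoglobin. These are called mixed cells below, and the values they move most are given without them as well. Leaving them out takes the UMI sums to 389610, 363847, 53811 and 427502, so a gene absent from them then has a higher CPM, most of all with AMH. Values given as a run of 4 below follow the order control, doxorubicin, doxorubicin+AMH, AMH. Without the mixed cells the granulosa markers summed to 102.7, 63.2, 223 and 381.3 CPM, against 760.7, 1100, 182.3 and 3359 CPM with them. The macrophage list summed to 31.7, 14.9, 12.2 and 16.4 CPM against 108.9, 61.6, 83.6 and 112.4 CPM in the other cells, with Adgre1 at 0 UMIs in all 4 libraries and Csf1r at 24.9, 7.45, 12.2 and 5.46 CPM. The blood endothelial list summed to 77, 109.2, 97.3 and 58.6 CPM against 184.6, 145.5, 91.4 and 115.2 CPM in the other cells. Within it Flt1 was at 0 UMIs, while Kdr, a receptor for VEGF, stood at 63.4, 109.2, 97.3 and 49.1 CPM, above the 28.9, 21, 12.2 and 17.9 CPM of the other cells. The lymphocyte list summed to 2.26, 4.96, 12.2 and 6.82 CPM against 11.5, 7.7, 12.5 and 8.71 CPM in the other cells, with 4 of 5 genes at 0 UMIs, and in the oocyte list Zp1 and Bmp15 were at 0. The oviduct list summed to 56.6, 24.8, 24.3 and 45 CPM against 275.7, 12.6, 28.4 and 323.5 CPM in the other cells. Of its 7 genes Cldn4 and Prom1 were at 0 UMIs, Ovgp1 lay between 0 and 13.6 CPM, and Pax8 stood at 27.2, 14.9, 0 and 17.7 CPM, in all but doxorubicin+AMH above the 7.38, 0.432, 1.19 and 7.72 CPM of the other cells. Foxj1 stood at 15.9, 2.48, 0 and 9.55 CPM, against 8.88, 1.45, 2.39 and 13.2 CPM.

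The Upk3b/Upk1b cells carried keratin and mesothelial genes outside the rule. Krt18, a simple-epithelium keratin, stood at 611.3 CPM in control, 317.7 with doxorubicin, 291.8 with doxorubicin+AMH and 255 with AMH. Mesothelin (Msln) stood at 412, 290.4, 231 and 136.4 CPM in the same order. The transcription factor Wt1, which marks mesothelium and gonadal cells, stood at 513.9, 570.9, 559.2 and 287.8 CPM. Without mixed cells Krt18 stood at 641.7, 340.8, 260.2 and 435.1 CPM, Msln at 446.6, 272.1, 92.9 and 233.9 CPM, and Wt1 at 557, 618.4, 724.8 and 430.4 CPM. The AMH library was the lowest for all 3 genes with the mixed cells, and without them doxorubicin+AMH was the lowest for Krt18 and Msln.

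Against the label, Cdh1 and Cldn3, a pair of epithelial junction genes, were close to 0, while others were present. E-cadherin (Cdh1), the adhesion molecule of epithelial sheets, was seen as 1, 0, 1 and 3 UMIs in control, doxorubicin, doxorubicin+AMH and AMH. Claudin 3 (Cldn3), a tight junction protein, was seen as 2, 1, 1 and 2 UMIs. The claudin Cldn10 stood at 398.5, 384.7, 376.9 and 204.6 CPM, above the 85.7, 131.3, 203.5 and 97.9 CPM of the Epcam-positive cells described next, and the junction gene F11r at 113.2, 181.2, 194.5 and 107.7 CPM. Genes of fibrous matrix were present as well. The collagen-binding proteoglycan decorin (Dcn) reached 3765, 4550, 4303 and 2471 CPM and had a UMI in 26 of 26, 18 of 18, 6 of 9 and 28 of 28 cells. Collagen I (Col1a1) stood at 615.8, 642.9, 595.7 and 291.8 CPM. Col1a2, the other chain of collagen I, stood at 781.1, 901, 571.4 and 526.4 CPM. Without mixed cells Dcn stood at 4019, 4878, 3475 and 4129 CPM, Col1a1 at 634, 703.6, 557.5 and 456.1 CPM, and Col1a2 at 775.1, 989.4, 427.4 and 750.9 CPM. Of the 6 stromal markers Dcn lay far above the other cells, which had 543.8, 552.2, 443.2 and 512.1 CPM. In those cells Col1a1 stood at 406.8, 428, 318.8 and 299.8 CPM and Col1a2 at 790.6, 777.1, 702.7 and 624.8 CPM. With mixed cells kept, Col1a1 lay above these levels except with AMH, and Col1a2 below them except with doxorubicin. Without mixed cells both lay above them with AMH. Lum, Pdgfra and Tcf21 were at 34 CPM or below, with Pdgfra at 31.7, 4.96, 12.2 and 8.18 CPM.

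The comparison with Epcam-positive cells places these genes. There were 207 cells that met the same marker criteria but had Epcam (91, 52, 29 and 35 per library). Of these, 12 in control and 5 with AMH had at least 10 UMIs of the oviduct gene Ovgp1. Pecam1 was allowed in the 207 cells and stood at 43.4, 27.2, 47.6 and 22 CPM. They were also deeper, with median UMIs of 27090, 23237.5, 12771 and 40864, against 12900.5, 17035.5, 7046 and 11950 in the Upk3b/Upk1b cells. They had 162.8 to 296 CPM of Cdh1 in control and doxorubicin and 80.4 to 128.8 CPM in both AMH-treated libraries. Their Dcn stood at 503.2, 442.5, 1285 and 1243 CPM, below the Upk3b/Upk1b cells in all 4 libraries. Lgr5, a stem-cell receptor known from ovarian surface epithelium, stood at 562.1, 603.8, 155.9 and 93.8 CPM in them and at 63.4, 47.2, 24.3 and 24.6 CPM in the Upk3b/Upk1b cells. Of 15 keratin and junction genes passing the level filter in either set, 9 were lower in the Upk3b/Upk1b cells in all 4 libraries and 1 was higher. Direction alone was counted here, whatever the size of the ratio. Of 21 mesothelial and surface epithelial genes 10 were lower and 3 higher in that sense. Over all 4138 genes compared, 21.5% were lower and 13.0% higher. Since Epcam itself split the groups, and Pecam1 was allowed only in the Epcam-positive cells, these are descriptions and not tests.

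**Figure D1:**
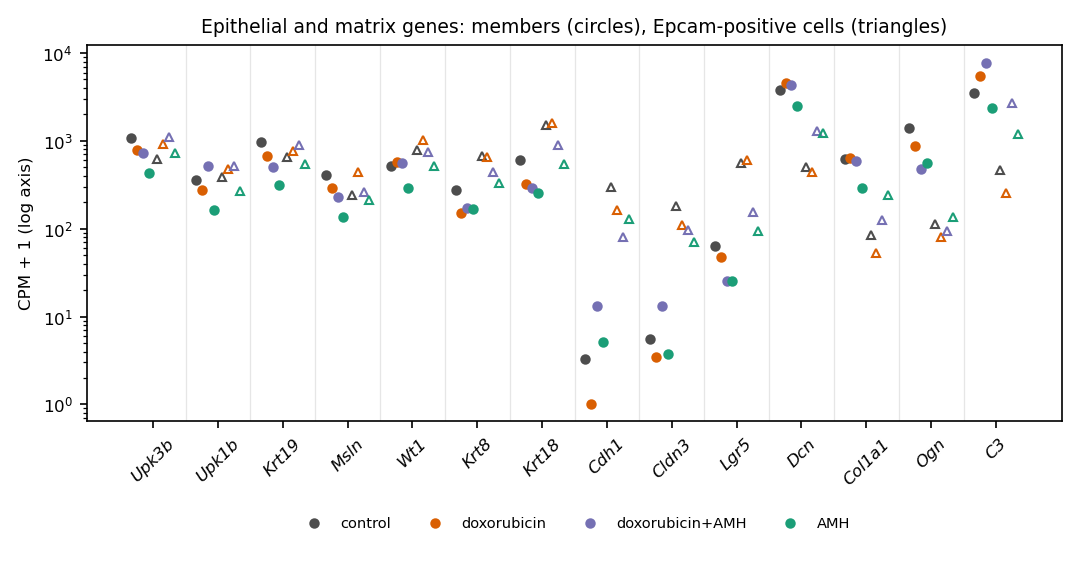
Levels of 14 genes as CPM + 1 on a log axis, 1 point per library, for the Upk3b/Upk1b cells (circles) and the Epcam-positive cells that met the same marker criteria (triangles). Upk3b and Krt19 overlap between the sets. Wt1 (log2 ratios -0.84 to -0.43), Cdh1 and Cldn3 lie lower in the circles in all 4 libraries, and Dcn, Col1a1, Ogn and C3 lie higher.

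Complement C3 and the growth factor Fgf1 stood highest over all other kept cells. Genes were ranked for this by the lowest of the 4 libraries' log2 ratios, with the 9 rule genes left out, and the ranking is a description of cells picked by their transcripts. C3, the central protein of the complement cascade, stood at 3471, 5453, 7780 and 2353 CPM, and in the remaining cells at 40.5 to 58.1 CPM. Fgf1 stood at 695, 625.5, 437.6 and 405 CPM against at most 7.23 CPM in other cells. Slpi, a secreted protease inhibitor of mucosal surfaces, followed at 826.3, 652.8, 1969 and 471.9 CPM. With doxorubicin+AMH its level without the mixed cell was 185.8 CPM, so most of it came from that cell.

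The next genes by rank were Lrrn4, Sox6, Dpp4, Il1rapl1, Gpm6a and Rspo1. Lrrn4 and Gpm6a are known mesothelial genes, Dpp4 is a cell-surface peptidase, and R-spondin 1 (Rspo1) strengthens Wnt signalling. Rspo1 stood at 355.4, 250.7, 243.1 and 163.7 CPM, and at 3.59 to 8.31 CPM in the other cells. In the Epcam-positive cells Rspo1 stood at 172.5, 222, 254.3 and 172.1 CPM, so it marked both sets. Msln, Nkain4, Lgals2, Abcb1b, Tmem255a, Prph, Crip1, Cfb, Wdr17, Cldn15 and Slc9a3r1 completed the 20 leading genes. Of these 20, 10 were higher than in the Epcam-positive cells in all 4 libraries, and Sox6, Gpm6a, Rspo1, Msln, Lgals2, Crip1 and Slc9a3r1 were higher in 2 or fewer. Complement factor B (Cfb) stood at 169.8, 307.8, 328.2 and 92.7 CPM, and without mixed cells at 74.3 with doxorubicin+AMH and 159.1 with AMH. Its sequence is nearly the same as that of Gm20547, so its counts are uncertain. Abcb1b, a drug efflux pump that carries doxorubicin, stood at 566, 700, 218.8 and 188.2 CPM.

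Fgf1 and, outside the 20, Ogn also lay far above the Epcam-positive cells. Fgf1 was at 58.6, 21, 64 and 89.6 CPM there, and Ogn, a small matrix proteoglycan, was at 111.6, 80.2, 93.5 and 135.3 CPM against 1410, 881.2, 474.1 and 566 CPM in the Upk3b/Upk1b cells. Of 14 interferon-response genes 8 were higher in the Upk3b/Upk1b cells in all 4 libraries, whatever the size of the ratio, and of 8 inflammatory genes 5 were. Over all genes compared this share was 13.0%. No gene of either list was lower in that sense. The control library was among the 4, so this held without doxorubicin or AMH as well.

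Doxorubicin was compared in 2 ways that share no library: doxorubicin with control, and doxorubicin+AMH with AMH. Ratios are log2 of (CPM + 5), so they understate differences of low genes. They were taken for the 3565 genes averaging 50 CPM or more across the libraries (the level filter), and a gene is counted as higher or lower from a 2-fold ratio on. Between doxorubicin and control, 4.01% of these genes were higher and 3.2% lower. Between doxorubicin+AMH and AMH, 9.96% were higher and 13.5% lower, with only 9 cells on the first side. These shares are the background for the counts of list genes past the filter below, and not for counts made without it. The average takes in every library, so a gene can pass the filter because of the difference being counted. Counts and medians of list genes past the filter can then be partly set by it.

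p53 target genes were higher with doxorubicin than in control. The list held 34 genes, of which 9 passed the level filter, and 7 of the 9 were at least 2-fold higher and none lower, with a median log2 ratio of 2.18 against -0.04 for all genes. Ccng1, Mdm2, Phlda3 and Trp53inp1 passed only through the doxorubicin-treated libraries, since their control and AMH levels each lay below the filter's limit. The 7 of 9 and the median of 2.18 are therefore partly set by the filter. Without the level filter 31 of the 34 lay above a ratio of 0, with a median of 1.63. No share over all genes is given beside this count. Cdkn1a (ENSMUSG00000023067, chr17:29090976-29100727 on the plus strand of GRCm38 in GENCODE), the CDK inhibitor p21 that halts the cell cycle, stood at 63.4 CPM in control (95% exact Poisson interval 42.1 to 91.6), 1152 with doxorubicin (1050 to 1260), 401.2 with doxorubicin+AMH (276 to 563) and 90 with AMH (69.6 to 115). Both doxorubicin-treated libraries were above both others, and the interval of doxorubicin+AMH lay below that of doxorubicin. The log2 ratio of doxorubicin to control was 4.08, which is 16.9-fold on that scale.

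The other leading p53 targets followed the same order between doxorubicin and control. Ccng1, cyclin G1, which feeds back on p53, stood at 43, 337.6, 97.3 and 27.3 CPM. Phlda3, an inhibitor of AKT, stood at 22.6, 191.1, 85.1 and 17.7 CPM. Trp53inp1, which promotes p53-dependent death, stood at 15.9, 168.8, 145.9 and 25.9 CPM. In each of these the doxorubicin level was the highest. Without mixed cells the doxorubicin+AMH levels were 37.2 CPM for Ccng1, 18.6 for Phlda3 and 0 for Trp53inp1, from 2, 1 and 0 UMIs, no longer above the control levels of 46.2, 20.5 and 12.8 CPM. Mdm2, the ubiquitin ligase that degrades p53, stood at 34, 171.3, 133.7 and 35.5 CPM, where doxorubicin+AMH without the mixed cell was at 37.2 CPM. Bax, a pore-forming death effector, stood at 47.5, 196.1, 60.8 and 66.8 CPM. For Bax the doxorubicin+AMH and AMH levels lay side by side. Btg2, an antiproliferative gene, stood at 516.2, 757.1, 936.1 and 301.4 CPM, and Sesn1, a stress-response gene, was lower with doxorubicin, at 37.2 CPM against 72.5 in control.

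Promoter sequence is shown for Cdkn1a and Ccng1, the p53 targets past the level filter whose window held the p53 consensus. RefSeq windows (GRCm38.p6) reach from 250 bases before to 50 after the gene start. The p53 consensus, read on both strands with at most 1 mismatch, was in 29 of 32851 windows (0.0883%). It was in 3 of the 25 list genes with a window (12%), namely Cdkn1a, Ccng1 and Gtse1, and not in the windows found for the other genes past the filter. The lines give chr17:29090878-29090997 on the plus strand and chr11:40755412-40755531 on the minus strand, 5′ to 3′, with the match in capitals, which starts 51 bases before the gene start in Cdkn1a and 195 in Ccng1. A match describes the letters and not a bound site.
Cdkn1a: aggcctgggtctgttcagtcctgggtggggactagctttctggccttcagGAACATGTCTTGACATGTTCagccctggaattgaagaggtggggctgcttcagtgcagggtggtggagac
Ccng1: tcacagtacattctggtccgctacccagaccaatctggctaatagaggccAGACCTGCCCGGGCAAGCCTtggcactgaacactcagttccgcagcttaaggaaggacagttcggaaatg

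The doxorubicin cells differed widely from each other. Per 10000 UMIs of a cell, Cdkn1a ran from 0 through a median of 0 to 1.91 in the 26 control cells, and from 0 through 6.85 to 46.9 in the 18 doxorubicin cells. In the 9 doxorubicin+AMH cells it ran from 0 through 2.86 to 6.87, and in the 28 AMH cells from 0 through 0.0717 to 3.58. The 2.86 and 6.87 are shallow cells of 3493 and 1456 UMIs with 1 Cdkn1a UMI each, and both exceed the control maximum of 1.91. Above the highest control cell lay 12 of 18 doxorubicin cells, 5 of 9 doxorubicin+AMH cells and 4 of 28 AMH cells. Another 5 doxorubicin cells had no Cdkn1a UMI, and 1 cell of 44315 UMIs held 208 of the 464 Cdkn1a UMIs of that library (44.8%). The summed p53 list gave a similar picture, with 13 of 18, 3 of 9 and 0 of 28 cells above the highest control cell at 24.4 per 10000.

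**Figure D2:**
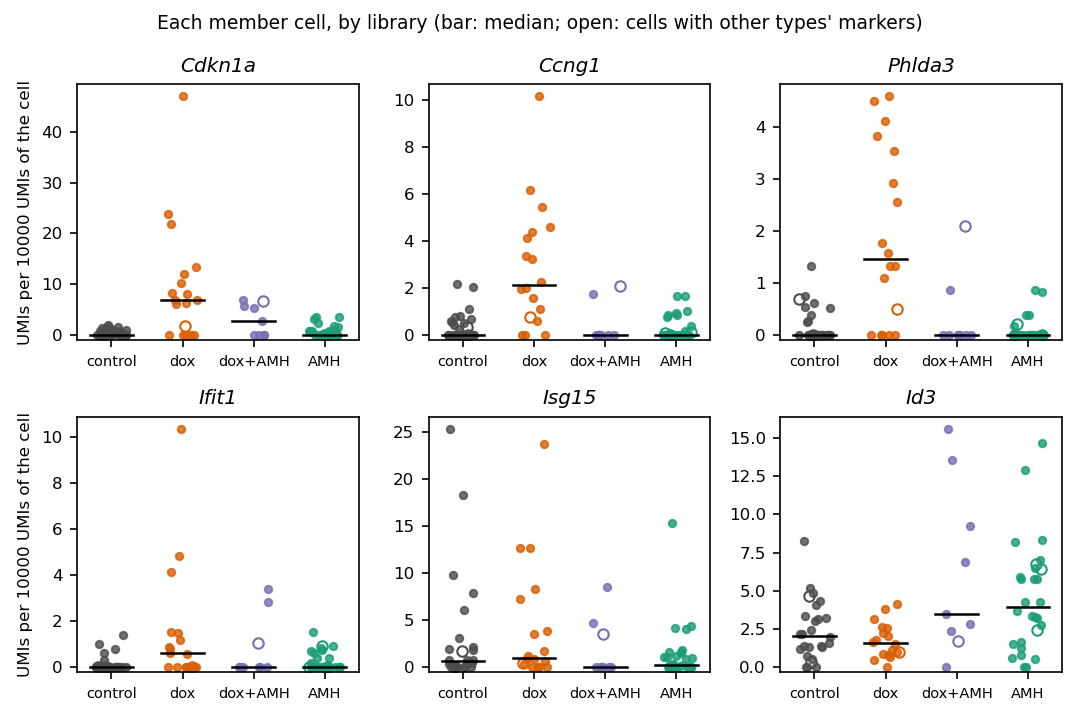
UMIs per 10000 UMIs of the cell for 6 genes, 1 point per Upk3b/Upk1b cell, by library (dox is doxorubicin), with a bar at the median and open points for mixed cells. In Cdkn1a 12 of 18 doxorubicin cells lie above every control cell, and in Id3 the medians of both AMH-treated libraries (3.5 and 3.97) lie above those of control (2.06) and doxorubicin (1.58), with wide overlap.

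Deeper cells show a gene more often, so cells were also thinned to 2000 UMIs. Then 3.85% of control cells had a Cdkn1a UMI, 61.1% of doxorubicin cells, 37.5% of doxorubicin+AMH cells and 21.4% of AMH cells, against 46.2%, 72.2%, 55.6% and 50% unthinned. The exact 95% interval was 0.0973% to 19.6% in control and 35.7% to 82.7% with doxorubicin, and 1 doxorubicin+AMH cell was too shallow to thin. Granulosa cells of the same libraries, thinned likewise, gave 1.85%, 6.74%, 4.63% and 2.63%, and stromal cells 5.65%, 15.9%, 9.14% and 8.1%. Macrophages gave 29.4%, 73.6%, 55.9% and 24.3%. The Epcam-positive cells of the same marker criteria gave 29.5%, 63.5%, 34.5% and 5.71%. With doxorubicin the share in Upk3b/Upk1b cells lay above those of granulosa and stromal cells, and its interval overlapped those of the Epcam-positive cells (49% to 76.4%) and macrophages (59.7% to 84.7%). The list median for doxorubicin against control was 1.13 in all Epcam-positive epithelial cells, 1.05 in macrophages, 0.73 in stroma, 0.22 in granulosa cells and 0.18 in endothelial cells. In the Epcam-positive cells of the same marker criteria it was 2.23, close to the 2.18 of the Upk3b/Upk1b cells.

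The p53 list median of the second pair was lower when the mixed cells of both libraries were left out. Between doxorubicin+AMH and AMH, 6 of 9 genes were at least 2-fold higher and 1 lower (Sesn1, with 2 UMIs in doxorubicin+AMH), with a median of 1.66 against -0.09 for all genes. The erythroid-rich mixed cell held 19 of the 33 Cdkn1a UMIs and all 12 Trp53inp1 UMIs of the doxorubicin+AMH library. Without the mixed cells Cdkn1a stood at 260.2 CPM with doxorubicin+AMH and 142.7 with AMH, in place of 90 with all AMH cells, so both sides of the ratio moved. The log2 ratio of Cdkn1a was then 0.84 and the list median 0.15 over 8 genes, or 0.23 with Trp53inp1 at the floor of 3 UMIs. Ccng1, Mdm2, Phlda3, Trp53inp1, Bax and Ei24 had 3 or fewer UMIs there with doxorubicin+AMH, so that median rests on genes at or below the floor. With all cells and no level filter 24 of the 34 list genes lay higher and 9 lower, with a median of 0.61, or 1.35 with genes at 0 UMIs set to the floor. That count has no share over all genes beside it. The directions of low genes are coarse, since 1 UMI was worth 12.2 CPM with doxorubicin+AMH and 1.36 with AMH. For doxorubicin against control the median without the mixed cells was 2.51 and the ratio of Cdkn1a 4.09. Doxorubicin+AMH against doxorubicin had 5 of 9 p53 genes lower and none higher, where 14.4% of all genes were lower and 6.7% higher. That list median was -1.12 with the mixed cells, -2.19 without them and -1.27 in the Epcam-positive cells, and -0.32 with the cells of the highest doublet scores removed. This removal took 4 of the 9 doxorubicin+AMH cells and kept the erythroid-rich cell, which held 120 of the 210 p53 list UMIs of that library.

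Interferon-response genes were higher with doxorubicin than in control, and 1 cell held much of their signal. Of 19 list genes 14 passed the level filter, and 9 were at least 2-fold higher than in control and none lower, with a median of 1.26. All 19 lay above a ratio of 0 without the filter, also with a median of 1.26, and this count has no share over all genes beside it. In the second pair 9 of 14 were higher and none lower, with a median of 1.48. Ifit1, Ifit3, Irf7 and Rtp4 passed only through the doxorubicin-treated libraries, since their control and AMH levels each lay below the filter's limit. The 9 of 14 in both pairs is therefore partly set by the filter. Ifit1, which blocks translation of foreign RNA, stood at 15.9, 248.2, 97.3 and 15 CPM. Ifit3, its partner, stood at 20.4, 201.1, 158 and 12.3 CPM. Irf7, the transcription factor that amplifies interferon, stood at 34, 166.3, 158 and 15 CPM. Both doxorubicin-treated libraries lay above both others for these 3 genes. Without mixed cells this order held for Ifit1 (18, 274.8, 92.9 and 23.4 CPM) and Ifit3 (23.1, 222.6, 111.5 and 21.1 CPM), while Irf7 with doxorubicin+AMH was at 37.2 CPM, from 2 UMIs, against 35.9 in control.

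The other interferon genes named here differed by unequal amounts between the pairs. Isg15, a ubiquitin-like modifier, stood at 194.7, 474.1, 243.1 and 81.8 CPM, and Bst2, which tethers virus particles to the cell, at 273.9, 662.7, 328.2 and 238.7 CPM. Oasl2 stood at 165.3, 379.8, 449.8 and 122.7 CPM, and Rtp4 at 29.4, 86.9, 97.3 and 9.55 CPM, where the Rtp4 gene overlaps Gm45338 on the same strand. Without mixed cells Isg15 stood at 207.9, 519.4, 185.8 and 140.4 CPM and Bst2 at 290, 709.1, 223 and 269 CPM, so doxorubicin+AMH was then below control for both. The chemokine Cxcl10 stood at 178.8, 856.3, 85.1 and 88.7 CPM, so the doxorubicin+AMH and AMH levels were nearly equal, as they were without mixed cells (130.1 and 152 CPM). Of the 345 Cxcl10 UMIs with doxorubicin 253 came from 1 cell of 60022 UMIs, and without that cell the level was 268.3 CPM.

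The same cell held 823 of the 2210 interferon UMIs of the doxorubicin library (37.2%). Without the deepest cell of each library the list median for doxorubicin against control was 0.84, and 4 of 14 genes were at least 2-fold higher. Per cell, the summed list had medians of 18.8, 24.8, 10.5 and 16.6 per 10000 UMIs, and 1 of 18 doxorubicin cells exceeded the highest control cell at 111. Without mixed cells the median ratio was 1.28 for doxorubicin against control and 0.46 for doxorubicin+AMH against AMH, or 0.79 with genes at 0 UMIs set to the floor of 3 UMIs. Ifit1 had log2 ratios of 3.61 and 1.79 in those pairs, and Ifit3 3.02 and 2.16. In the Epcam-positive cells the list medians were 0.41 and 0.89. AMH against control had 5 of 14 interferon genes lower and none higher (all genes 7.1% and 3.48%), with a median of -0.95, and -0.40 without mixed cells.

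Promoter windows of 3 interferon genes are printed because they hold the interferon-stimulated response element type GAAANNGAAA, searched on both strands. It was in 1131 of 32851 RefSeq windows (3.44%), in 10 of the 15 list genes with a window (66.7%), and in 8 of the 11 of those that passed the level filter (72.7%). The regions are chr19:34640735-34640863 and chr19:34583323-34583466 on the plus strand and chr4:156200825-156200946 on the minus strand of GRCm38.p6, 5′ to 3′, with matches in capitals. Matches start 104 and 85 bases before the gene start in Ifit1, 156 and 122 before it in Ifit3, and 78, 72 and 66 before it in Isg15, where they overlap.
Ifit1: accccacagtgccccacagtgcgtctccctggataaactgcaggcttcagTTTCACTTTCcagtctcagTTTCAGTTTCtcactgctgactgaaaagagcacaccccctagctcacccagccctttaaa
Ifit3: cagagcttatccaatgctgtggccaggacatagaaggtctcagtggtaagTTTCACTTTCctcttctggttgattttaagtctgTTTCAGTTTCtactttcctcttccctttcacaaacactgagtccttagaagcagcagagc
Isg15: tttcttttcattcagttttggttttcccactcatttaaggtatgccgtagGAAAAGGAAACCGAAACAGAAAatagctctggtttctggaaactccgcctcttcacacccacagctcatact

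**Figure D3:**
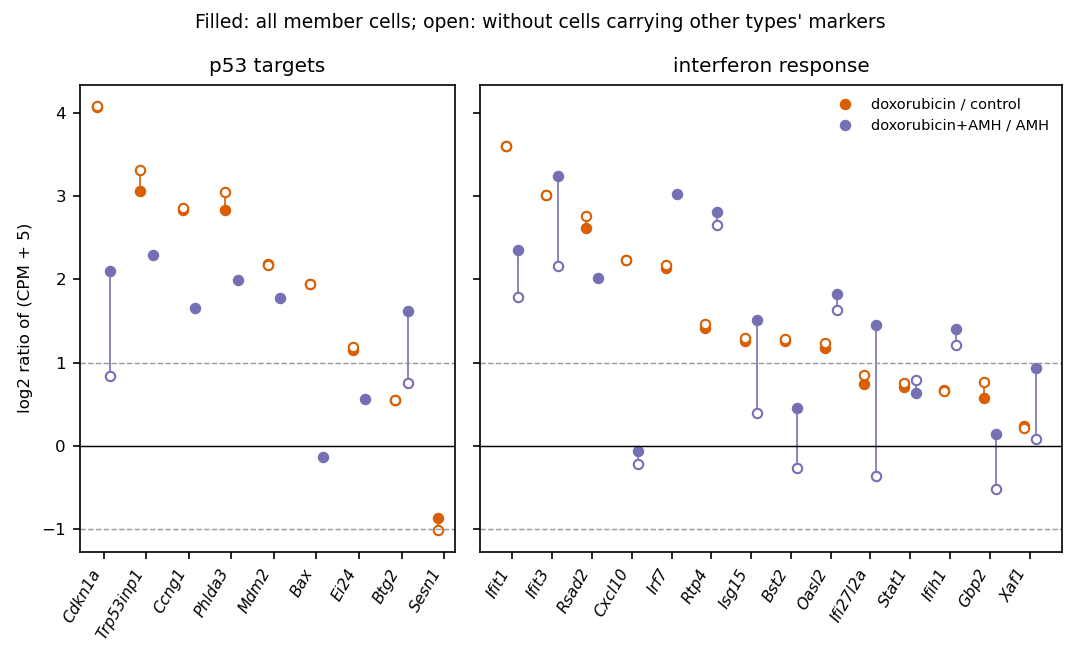
Log2 ratios of (CPM + 5) for p53 targets and interferon-response genes past the level filter, for doxorubicin / control (orange) and doxorubicin+AMH / AMH (purple). Filled points use all Upk3b/Upk1b cells and open points leave out mixed cells, no point is drawn where a library had 3 or fewer UMIs, and dashed lines mark 2-fold; for orange the p53 list median goes from 2.18 to 2.51 (Cdkn1a 4.08 to 4.09, Trp53inp1 3.06 to 3.32), and for purple from 1.66 to 0.15 (Cdkn1a 2.10 to 0.84).

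Among inflammatory genes the same doxorubicin cell held most of the UMIs of Ccl2 and Saa3. Ccl2, a chemokine for monocytes, stood at 74.7 CPM in control, 424.4 with doxorubicin and 24.6 with AMH, and had 0 UMIs with doxorubicin+AMH, where the floor of 3 UMIs is 36.5 CPM. The cell of 60022 UMIs held 121 of the 171 doxorubicin UMIs, and without it the level was 145.8 CPM. Saa3, an acute-phase protein, was seen as 1 UMI in control and stood at 330.1 CPM with doxorubicin, 279.6 with doxorubicin+AMH and 47.7 with AMH. That cell held 126 of the 133 doxorubicin UMIs, and all 23 UMIs with doxorubicin+AMH came from the erythroid-rich cell. For the 8 list genes past the filter the median for doxorubicin against control was 0.74, with 2 at least 2-fold higher and none lower.

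Among BMP/SMAD target genes Id2 and Id3 were higher in the libraries with AMH. Of 8 list genes 4 passed the level filter. Id3 (ENSMUSG00000007872, chr4:136143497-136145755, plus strand), a dominant-negative partner of helix-loop-helix factors, stood at 208.3 CPM in control (168 to 255), 156.4 with doxorubicin (120 to 200), 474.1 with doxorubicin+AMH (337 to 648) and 444.6 with AMH (398 to 496). Id2, of the same family, stood at 49.8, 52.1, 145.9 and 177.3 CPM, and without mixed cells at 38.5, 22, 167.3 and 88.9 CPM. For both genes the AMH-treated libraries were higher than the others, and for Id3 the intervals of the pairs did not overlap. Bambi, a decoy receptor induced by BMPs, stood at 52.1, 37.2, 121.6 and 81.8 CPM. Id1 stood at 144.9, 96.8, 206.7 and 147.3 CPM, level between AMH and control.

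AMH against control gave a BMP/SMAD list median of 0.84 with 2 of 4 genes at least 2-fold higher, against a median of -0.09 and 3.48% higher for all genes. Doxorubicin+AMH against doxorubicin gave 1.49 with 4 of 4 higher, against -0.13 and 6.7% for all genes. Bambi lay below the filter's limit with doxorubicin, and its average passed because the AMH-treated libraries were included. No count without the filter is given for this list, so the 4 of 4 is not free of the filter. Without mixed cells the medians were 1.03 and 1.42. In the Epcam-positive cells Id2 stood at 65.9, 22.9, 477.5 and 301.5 CPM and Id3 at 204.7, 158, 1032 and 712.2 CPM, in the same order of libraries. The inhibitory SMAD Smad6, below the level filter, stood at 18.1, 22.3, 48.6 and 79.1 CPM in the Upk3b/Upk1b cells.

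The AMH receptor Amhr2 was low in the Upk3b/Upk1b cells, at 6, 2, 7 and 55 UMIs or 13.6, 4.96, 85.1 and 75 CPM. It was highest in both AMH-treated libraries, and without mixed cells it stood at 130.1 CPM with doxorubicin+AMH and 37.4 with AMH. In the Epcam-positive cells it stood at 221.4, 250.6, 269.1 and 181 CPM. Granulosa cells carry this receptor, and granulosa markers were highest in the AMH library. The part of granulosa RNA in these levels was not tested.

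**Figure D4:**
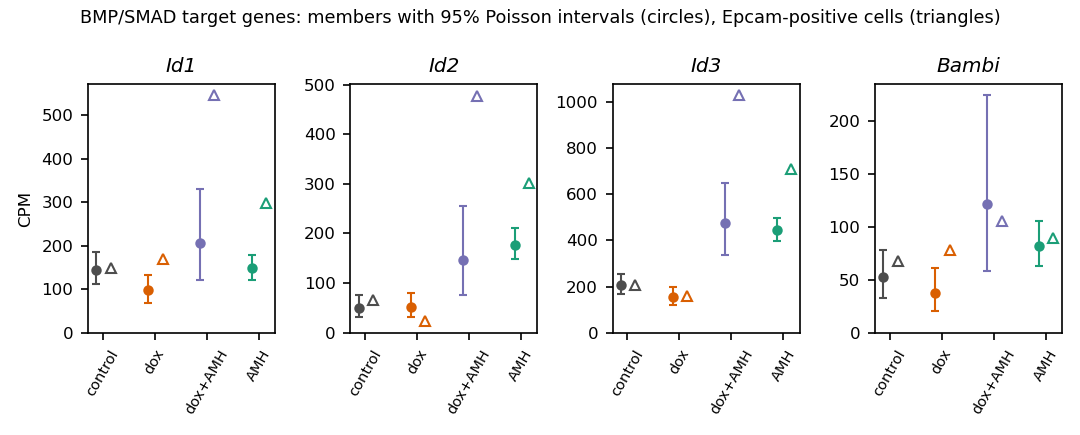
CPM of 4 BMP/SMAD target genes by library (dox is doxorubicin), as circles with 95% Poisson intervals for the Upk3b/Upk1b cells and as triangles for the Epcam-positive cells. Id2 and Id3 are higher in both AMH-treated libraries in both sets, and Id1 in the Upk3b/Upk1b cells is level between control (144.9) and AMH (147.3).

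Antioxidant genes as a list were level, with medians of 0.22 for doxorubicin against control and 0.06 for doxorubicin+AMH against AMH over 16 genes. Gclc and Gclm, the subunits of the enzyme that starts glutathione synthesis, were above 2-fold with doxorubicin alone: Gclc stood at 99.6, 213.5, 97.3 and 132.3 CPM, and Gclm at 27.2, 72, 60.8 and 58.6 CPM. Between doxorubicin+AMH and AMH neither differed by 2-fold. The mesothelial list had medians of -0.28 and 0.80 in both doxorubicin comparisons, and keratins and junctions -0.19 and 0.22. The BCL2 family of death regulators had medians of 0.64 and 0.80 over 5 genes, of which Bcl2l1, a survival gene, stood at 47.5, 77, 109.4 and 24.6 CPM. Without mixed cells the medians for doxorubicin+AMH against AMH were -0.03 for the mesothelial list, -0.11 for keratins and junctions and 0.37 for the BCL2 family.

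Immediate early genes, which tissue handling also switches on, had medians of 0.47 and -0.53 over 20 genes. Fos stood at 2719, 3654, 1313 and 3412 CPM, lowest with doxorubicin+AMH. Atf3, a stress-response factor also known as a p53 target, stood at 760.7, 2011, 461.9 and 692.8 CPM, highest with doxorubicin and lowest with doxorubicin+AMH. Without mixed cells Atf3 stood at 831.6, 2218, 669 and 1165 CPM, in which control and AMH change places. Wnt genes had medians of -0.38 and -0.21 over 8 genes, with none at least 2-fold higher in either comparison and 0 and 2 at least 2-fold lower. Genes of doxorubicin handling had medians of 0.22 and -0.34. Without mixed cells the second of these medians was -0.80 for immediate early genes, -0.39 for Wnt genes and -0.01 for doxorubicin handling. No G2/M gene passed the level filter, and 2 S-phase genes did, so cycling was not measured in these cells.

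The ranking over all genes used the ratios of genes with 3 or fewer UMIs in a library as well, and their place depends on the pseudocount, so they are given by level. The 10 with the highest doxorubicin ratio in both pairs included Ifit3, Ifit1, Trp53inp1 and Saa3 from above, and H2-Q7, an MHC class I gene, which stood at 9.06, 89.4, 121.6 and 12.3 CPM. Samd12 stood at 29.4, 340.1, 194.5 and 34.1 CPM, and Cxcl13, a B-cell chemokine, at 11.3, 69.5, 158 and 15 CPM. Without the mixed cell doxorubicin+AMH was at 55.8 CPM for H2-Q7, 130.1 for Samd12 and 37.2 for Cxcl13. Ly6a, a surface antigen known to respond to interferon, stood at 34, 312.8, 36.5 and 4.09 CPM, where all 15 control UMIs came from 1 cell, as did all 3 with doxorubicin+AMH and 53 of the 126 with doxorubicin. Gm42047, an unnamed gene with near-identical copies, stood at 4.53, 126.6, 133.7 and 12.3 CPM. Col6a5, a collagen VI chain, had 0 UMIs in control and stood at 22.3, 449.8 and 1.36 CPM in the other libraries.

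The 10 lowest by the same rule were Csmd1, Cped1, Frmd5, Itih5, Tenm4, Acta2, Aff3, Ank3, Rgs2 and Fmo2. All 10 had 3 or fewer UMIs with doxorubicin+AMH. Csmd1, a complement-regulating membrane protein, stood at 303.4, 12.4, 12.2 and 388.7 CPM, and Frmd5 at 341.9, 12.4, 24.3 and 195 CPM. Without mixed cells Csmd1 stood at 136, 11, 18.6 and 177.8 CPM and Frmd5 at 30.8, 8.25, 18.6 and 42.1 CPM, so most Frmd5 in control and AMH came from those cells. Fmo2, a flavin monooxygenase, stood at 206 CPM in control and 7.45 with doxorubicin, 0 UMIs with doxorubicin+AMH, and 13.6 with AMH, so AMH alone was also low. Acta2, smooth muscle actin, stood at 224.1, 44.7, 12.2 and 114.6 CPM, and without the mixed cells at 82.1, 49.5, 0 and 44.4 CPM. With Pecam1 UMIs allowed in the rule doxorubicin+AMH was above AMH for Acta2 (264.4 against 130.1 CPM) and Aff3 (731.8 against 274 CPM), the opposite order.

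For AMH, the 8 genes highest in both AMH comparisons were Cst12, Magi2, Fxyd3, Id2, Nrg1, Camta1, Tmsb15b2 and Ctnnd1. Tmsb15b2 has near-identical copies, and Camta1 and Magi2 overlap other genes on their strand, so their counts are uncertain. Without mixed cells Cst12 with AMH was at 7.02 CPM in place of 103.6, below the 15.4 of control, and Tmsb15b2 at 28.1 in place of 136.4. Fxyd3, a regulator of the sodium pump, stood at 22.6, 27.3, 206.7 and 87.3 CPM, and without mixed cells at 25.7, 13.7, 315.9 and 145 CPM. The 8 lowest were Ano5, Ly6a, Has1, Stc2, Nhs, Opcml, Bhlhe40 and Gm12840. Has1, a hyaluronan synthase active in mesothelium, stood at 72.5, 134 and 13.6 CPM in control, doxorubicin and AMH and had 0 UMIs with doxorubicin+AMH. Stc2, a secreted glycoprotein, stood at 316.9, 191.1 and 80.5 CPM in the same libraries and was also at 0 with doxorubicin+AMH. Gm12840, whose sequence is nearly that of Gm20186, stood at 509.4, 930.8, 303.9 and 156.8 CPM.

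Most genes with the greatest difference between the doxorubicin ratios had most of their UMIs in mixed cells, with Hsd17b2 as an exception. The 5 highest were Hbb-bs, Hba-a2, Hbb-bt, Hba-a1 and Hsd17b2, of which 4 are haemoglobin chains with near-identical copies. Hbb-bs stood at 11.3, 4.96, 44430 and 2.73 CPM, and without mixed cells at 37.2 CPM with doxorubicin+AMH. Hsd17b2, a steroid dehydrogenase, had 3, 0, 16 and 0 UMIs, and all 16 were outside the mixed cell. The 5 lowest were Ctnna2, Prkar2b, Gm35533, Inhba and Aff2. Inhba, the activin subunit of granulosa cells, stood at 129, 429.4, 12.2 and 645.1 CPM, and without mixed cells at 10.3, 5.5, 18.6 and 44.4 CPM. Ctnna2 with AMH stood at 416 CPM, and at 215.2 CPM without them.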

How the data were processed

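Deposited UMI counts per gene and barcode (32285 genes) come from Cell Ranger 7.0.0 per the file headers; the build mm10, R 4.2.0 and Seurat 4.1.0 are per the submitters' processing notes. The authors' counts were not normalized. Counting of intronic reads is not given in the sources used here. Libraries were made from pooled ovaries, per the labels' protocols. The cells, gene lists and naming rules were chosen with earlier results of these data known.

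Counts were summed per library, scaled to CPM with exact Poisson 95% intervals, and compared as log2 of (CPM + 5) for genes averaging at least 50 CPM (python 3.11.15, numpy 2.4.6, scipy 1.17.1, pandas 2.3.3). The steps were tested on simulated data. Named genes were up to 6 per list by size of the ratio, 10 each way for doxorubicin by whichever of both pairs' ratios lay closer to 0, 8 each way for AMH likewise, 5 each way by the difference of the doxorubicin ratios, and 20 identity genes. Amhr2, Smad6, Cdh1, Lgr5, Ogn, Gclc, Gclm, Fos and Atf3 were added after their values were seen. Rankings, counts and list medians use every gene past the filter, and genes with 3 or fewer UMIs in a compared library are described by level with no ratio. Doublets were scored with Scrublet (scanpy 1.11.5) and kept: 1, 2, 4 and 2 of the cells (control, doxorubicin, doxorubicin+AMH, AMH) were among the top scores. In all, 10 alternatives were planned and 3 added after seeing the data.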

Additional observations from a re-analysis of the deposited data

Results flagged for a closer look

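The metallothioneins, small metal-binding proteins that respond to zinc and glucocorticoid, lay on opposite sides of 0 in the doxorubicin comparisons, and the difference was not tested because each group is 1 library. Mt1 stood at 432.4 CPM in control, 181.2 with doxorubicin, 644.3 with doxorubicin+AMH and 306.9 with AMH, so its log2 ratio was -1.23 for doxorubicin against control and 1.06 for doxorubicin+AMH against AMH. Mt2 stood at 233.2, 49.6, 243.1 and 58.6 CPM, with ratios of -2.12 and 1.96. Without the mixed cells the ratios were -1.39 and 1.46 for Mt1 and -2.17 and 2.04 for Mt2. Mt1 had a UMI in 24 of 26, 11 of 18, 7 of 9 and 23 of 28 cells.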

How the results depend on the processing

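Values are in the order doxorubicin / control, doxorubicin+AMH / AMH, AMH / control, doxorubicin+AMH / doxorubicin unless named; the cause of each difference was not tested. With top-scoring doublets removed, 1140 genes passed 2-fold in doxorubicin+AMH / doxorubicin, and the p53 median there was -0.32. The erythroid-rich doxorubicin+AMH cell was not among those removed. With at least 2 of 6 markers, the share of cells was 0.477% in control and 0.5% with doxorubicin. The counts past 2-fold were 68, 445 and 133 in the first 3 comparisons, and the p53 medians were 0.99 and 0.79 for the doxorubicin pairs and -0.75 for the last. Under that rule the direction turned for doxorubicin / control in Acta2 (0.83), Ctnna2 (-1.15) and Rgs2 (0.09), and for doxorubicin+AMH / AMH in Nhs (-0.13) and Tmsb15b2 (0.47). It also turned for AMH / control in Ctnnd1 (-0.28), Magi2 (-0.68) and Tenm4 (-0.64), and for the last comparison in Camta1 (-0.32) and Magi2 (-1.31).

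With each cell weighted equally, 388 genes passed 2-fold for doxorubicin / control and 193 for AMH / control, and the p53 medians were 0.96 for doxorubicin+AMH / AMH and -1.67 for the last comparison. For doxorubicin+AMH / AMH the complement list's median became -0.06, Ifi27l2a -0.17, Nhs -0.67, Rsad2 -0.01, Saa3 -0.25 and Tmsb15b2 1.36. For AMH / control Cst12 became -0.77, Nrg1 -0.06, Prkar2b -0.17 and Tmsb15b2 -0.02, and Cxcl13 became -0.25 in the last comparison.

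With a mean of at least 20 CPM the counts were 700, 2066, 823 and 2033 and the p53 medians 1.68, 0.92, -0.28 and -0.78. With no filter the counts were 2103, 5593, 2090 and 5066, and the p53 medians were 1.63 and 0.61 for the doxorubicin pairs and -0.72 for the last comparison. More low genes enter these counts by construction.

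The next alternatives were chosen after seeing the data. With Pecam1 UMIs allowed the shares of cells were 0.501% in control, 0.624% with doxorubicin and 0.515% with AMH. The counts were 482, 235 and 394 in the last 3 comparisons, and the p53 medians there 0.67, -0.23 and -1.42. Without mixed cells the p53 medians were 2.51, 0.15 and, in the last comparison, -2.19, 164 genes passed 2-fold for AMH / control, and Ifi27l2a became -0.37 for doxorubicin+AMH / AMH. Without the deepest cell of each library the p53 medians were 2.49, 0.13 and, in the last comparison, -2.22, and 241 genes passed 2-fold for AMH / control. Nhs became -0.45 for doxorubicin / control and Prkar2b -0.4 for AMH / control. A result is 1 gene in 1 comparison, and results with 3 or fewer UMIs under a setting gave no value there. These results numbered 36 without mixed cells, 28 without the deepest cell, 15 with doublets removed and 1 with at most 10% mitochondrial UMIs. No direction turned and no count or p53 median moved past its limit with at most 10% mitochondrial UMIs, at least 3000 UMIs, at least 4 of 6 markers, median-of-ratios scaling or a pseudocount of 1 CPM.

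Limits: no paired analysis was possible because each group is 1 library. The 9 doxorubicin+AMH cells make 1 UMI worth 12.2 CPM, so low genes cannot be compared there. Intervals leave out differences between animals, dissections and library preparations. Shares of cells also depend on how the surface came off in digestion, which was not measured.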
